A study of Mus musculus with 6 samples.

Results

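The interferon-stimulated genes are 40 genes that interferons induce, chosen by name from 52636 genes in a count table of mouse thoracic aorta. All 40 were found in the table by their Ensembl identifiers and all 40 could be tested, as could 17070 genes in all. They fall into 7 groups by role: sensors of foreign RNA and DNA and an inhibitor of translation (5 genes), transcription factors (4), IFIT proteins and other antiviral effectors (13), the oligoadenylate synthetase (OAS) family (5), ISG15 with its protease and ubiquitin or ADP-ribose ligases (6), interferon-inducible GTPases (5) and immunoproteasome subunits (2).

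Bulk RNA-seq measured 6 whole thoracic aortas from male mice at 12 weeks of age. The WT group held 4 C57BL/6J mice without treatment. The KO group held 2 mice homozygous for floxed Tgfbr1 and Tgfbr2 that also carried Myh11-CreERT2, a Y-linked transgene with the smooth muscle promoter of Myh11, and mT/mG, a fluorescent reporter of recombination. From 11 weeks these mice were given 2 mg of tamoxifen daily on 5 days, which switches Cre on, and the comparison asks how transcription responds early when smooth muscle cells lose TGF-β signalling. Other cells of the wall kept both receptors. The WT mice carried none of the modified alleles, received no tamoxifen and were not littermates, so genotype, tamoxifen and breeding cannot be told apart as sources of a difference. KO against WT is the one comparison of the design, and with 2 KO libraries each KO mean rests on 2 values. The libraries are called WT-1 to WT-4, KO-1 and KO-2 after the codes of the table's columns, and their assignment to groups was read from these codes.

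Interferons are secreted proteins by which cells warn each other of infection. Type I interferons act through the receptor chains Ifnar1 and Ifnar2 and the kinases Jak1 and Tyk2, which activate STAT factors, Stat2 among them. Together with Irf9 these bind the interferon-stimulated response element (ISRE) in the promoters of responsive genes. Type II interferon (interferon-γ) acts through Ifngr1 and Ifngr2, and its STAT factors bind the γ-activated sequence (GAS). The induced genes recognise foreign nucleic acids, block translation and viral budding, degrade RNA, or limit the signal itself, and many respond to both types of interferon.

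Promoters were searched for short forms of both elements. RefSeq promoters (build GRCm38.p6, 250 bases before to 50 bases after each start) were matched by symbol for 30 of the 40 genes, all but Dhx58, Usp18, Oas2, Mx1, Mx2, Rtp4, Parp9, Parp14, Zbp1 and Iigp1. The ISRE form, GAAA, any 2 bases and GAAA again, was found on either strand in 16 of these 30 (53.3%), and in 3.99% of all 27025 genes with a promoter. The GAS form TTCNNNGAA, which reads the same on both strands, was found in 9 of 30 (30%) and in 9.55% of all genes. The stretches below, written 5′ to 3′ in the direction of the gene with the matches in capitals, are shown because the genes that carry them behaved differently in the KO libraries.
Ifit1 (chr19:34640770-34640828, plus strand): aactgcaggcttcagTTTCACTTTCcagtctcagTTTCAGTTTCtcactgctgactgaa
Ifit3 (chr19:34583358-34583431, plus strand): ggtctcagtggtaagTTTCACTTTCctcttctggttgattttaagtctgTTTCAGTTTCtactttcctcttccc
Rsad2 (chr12:26456548-26456587, minus strand): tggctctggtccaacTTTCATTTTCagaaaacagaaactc
Isg15 (chr4:156200860-156200911, minus strand): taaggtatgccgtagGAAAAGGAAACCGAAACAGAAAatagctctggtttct
Oas3 (chr5:120777710-120777749, minus strand): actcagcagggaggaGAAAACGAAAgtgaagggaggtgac
Gbp2 (chr3:142620589-142620628, plus strand): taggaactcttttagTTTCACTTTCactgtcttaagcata
Igtp (chr11:58199496-58199545, plus strand): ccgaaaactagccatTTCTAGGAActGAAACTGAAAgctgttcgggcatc
Irf1 (chr11:53769909-53769947, plus strand): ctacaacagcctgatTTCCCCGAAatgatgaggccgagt
Ifit1 and Ifit3 each hold 2 ISRE matches with the same letters (TTTCACTTTC and TTTCAGTTTC), and Isg15 holds 3 that overlap each other. The stretch shown for Ifit3 occurs letter for letter in Ifit3b at chr19:34607754-34607827. In Igtp a GAS match lies next to an ISRE match, and the match in Irf1 is a GAS form alone.

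Total counts per library ran from 19650983 to 28860598. Of the counts, 2.62% to 4.44% fell on mitochondrial genes in the WT libraries and in KO-1, and 11.7% in KO-2 (95% Wilson intervals, which cover counting error only, extend no more than 0.0142 percentage points each way). KO-2 also held far more red blood cell RNA (5 genes, summed normalised count 61684, against 859 to 11076 in the other 5 libraries) and adipocyte RNA (9 genes, 47495 against 2870 to 5827), and KO-1 more cardiac muscle RNA (8 genes, 29061 against 3095 to 4441). Normalised counts are counts divided by the DESeq2 size factor of the library. The tissue label held for smooth muscle, whose 9 markers summed to between 846710 and 1050290 in every library. Tgfbr1 had 4510 ± 726 normalised counts over the 4 WT libraries and 5174 ± 858 over the 2 KO libraries (mean ± SD), Tgfbr2 had 6240 ± 882 and 5861 ± 108, and neither gene passed the test (DESeq2 adjusted p = 0.63 and 0.84). Reads from the undeleted exons and from cells without Cre count toward both genes, so these totals check neither the deletion nor the labels.

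Of the 40 interferon-stimulated genes, 10 were higher in KO at an adjusted p-value under 0.05 (25%), where 5.71% of all tested genes were higher (DESeq2 Wald test, Benjamini-Hochberg adjustment over all tested genes), and 0 were lower, where 4.69% of all tested genes were. At an unadjusted p under 0.05, 23 were higher, against 11.9% of all tested genes, and 0 lower. By edgeR, 6 of the 40 were higher and 0 lower, against 3.42% and 2.76% of the genes it tested. The 10 were Rsad2, Ifi44, Ifit1, Zbp1, Oasl2, Irf7, Oas2, Cmpk2, Ifih1 and Parp14. Of these, Rsad2, Ifi44, Ifit1, Zbp1 and Oasl2 were also more than 2-fold higher (12.5% of the 40, 3.54% of all tested genes), and 0 were more than 2-fold lower (2.1% of all tested genes). Normalised counts of 22 of the 40 (55%) were higher in both KO libraries than in every WT library, which was so for 17.9% of all tested genes, and 0 were below every WT library in both, against 16.4%. The log2 fold change was above 0 for 34 of the 40, against 50.9% of all tested genes. The median log2 fold change was 0.55 over the 40 genes and 0.02 over the 15511 genes of the table whose normalised counts averaged 10 or more. Without KO-2 the number that passed was 3 (Ifit1, Rsad2 and Cmpk2). Without KO-1 it was 10, with Ddx58, Eif2ak2, Gbp2 and Gbp7 in place of Irf7, Oas2, Parp14 and Cmpk2.

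**Figure D1:**
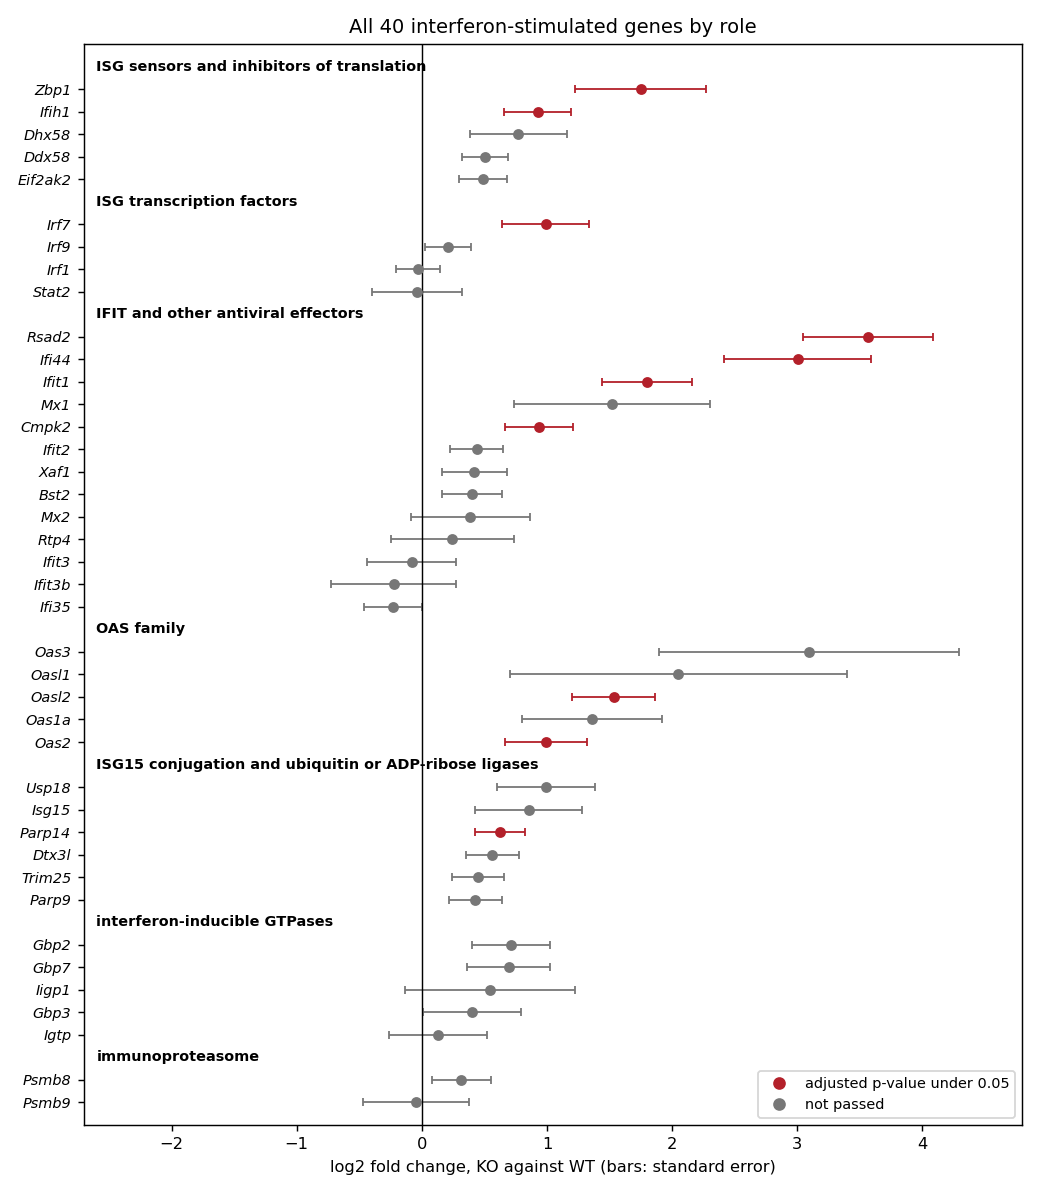
Log2 fold change of KO against WT (x axis, bars are standard errors from DESeq2) for each of the 40 genes, in 7 groups by role, with red points for the 10 genes whose adjusted p-value was under 0.05. Points to the right of 0 number 34, the largest values are those of Rsad2 (3.56), Oas3 (3.10) and Ifi44 (3.003), and no red point lies to the left of 0.

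The 2 KO libraries were not alike. Relative to the WT mean, the median of the 40 genes was 0.46 higher on the log2 scale in KO-1 and 0.77 higher in KO-2, and lay between -0.21 and 0.20 in the WT libraries. KO-2 was above KO-1 for 32 of the 40 genes (80%), against 48.0% of all tested genes. WT libraries also varied more for these genes than for most. The median ratio of the highest to the lowest WT library was 1.65 over the 40 genes. It was 1.38 over the tested genes whose normalised counts averaged 10 or more. Genes at 0 in any WT library, Oas3 and Oasl1 of the 40 among them, have no such ratio. The lowest WT library was WT-2 for 24 of the 40 genes, against 3251 of the 17070 tested genes.

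**Figure D2:**
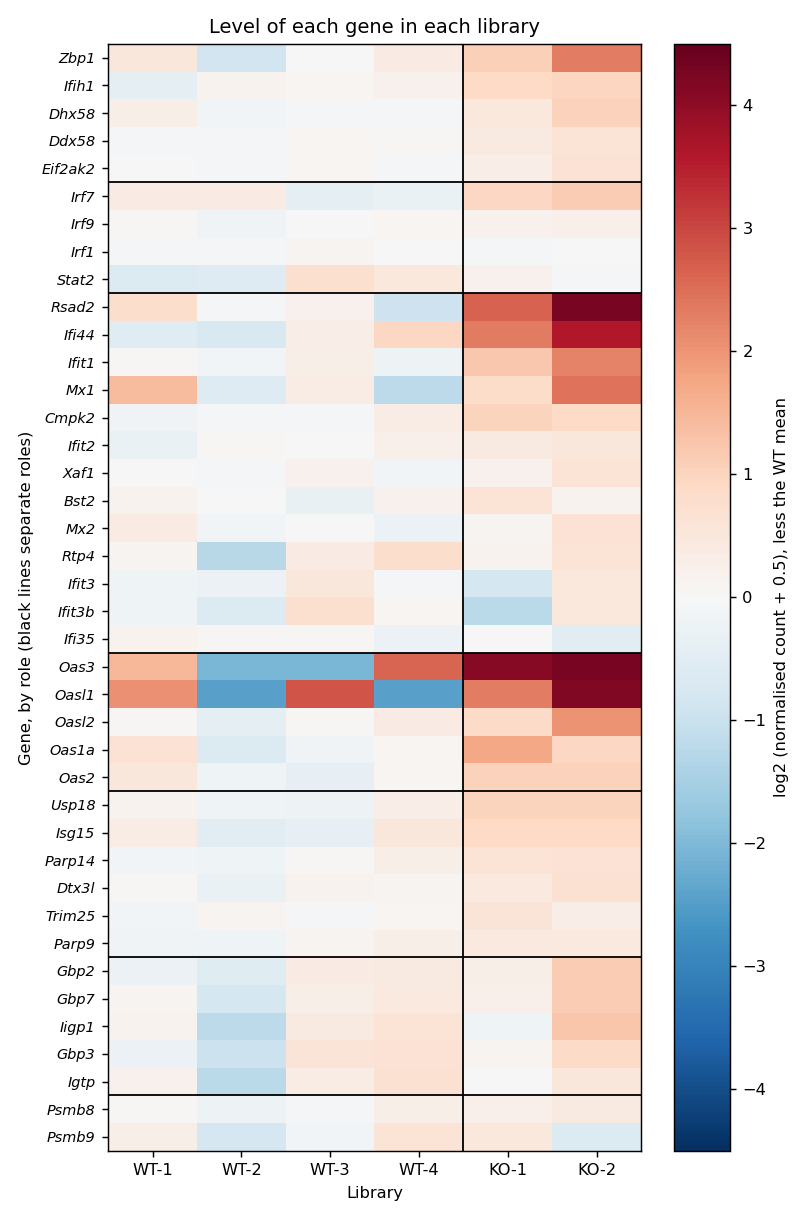
Level of each of the 40 genes (rows, by role) in each library (columns), as log2 of the normalised count plus 0.5 less the WT mean. Red is above the WT mean and blue below it; most rows are red in KO-1 and deeper red in KO-2, and the GTPase rows are blue in WT-2.

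Levels per kilobase of merged exon in WT aorta spanned a wide range. Bst2, which tethers budding virus particles to the cell surface, had the highest WT level of the 40 (524 normalised counts per kb), followed by Gbp2 (390) and Ifi35 (338). At the other end lay Oas3 (0.637), Ifi44 (2.65), Oasl1 (2.87), Mx1 (5.00) and Rsad2 (5.68). Ifi44 and Rsad2, near the bottom in WT, reached 21.3 and 67.2 normalised counts per kb in the KO mean.

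Among the antiviral effectors, Rsad2 rose most. Rsad2 (viperin) makes a chain-terminating nucleotide that stops viral RNA synthesis, and lies on chromosome 12 (GRCm38, 26442746 to 26456452). It had normalised counts of 39.5, 21.6, 26.0 and 11.5 in the WT libraries, 144 in KO-1 and 439 in KO-2. Both KO libraries were above every WT library, and KO-2 was 3.04 times KO-1. The log2 fold change was 3.56 ± 0.52 (SE), an 11.8-fold difference (DESeq2 adjusted p = 1.22e-09), and Rsad2 passed under each of the 16 alternative settings tried, with adjusted p-values up to 0.0119. Its size depended on the KO library, with a log2 fold change of 2.56 without KO-2 and 4.16 without KO-1.

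Cmpk2, a mitochondrial nucleotide kinase, begins 12.8 kb from Rsad2 and changed less. Its normalised counts were 127, 134, 133 and 179 in WT and 284 and 263 in KO. WT-4 stood apart from the other WT libraries, the groups did not overlap and, unlike for Rsad2, KO-1 was the higher KO library. The log2 fold change was 0.93 ± 0.27 (DESeq2 adjusted p = 0.00937), and without KO-1 the adjusted p was 0.0754.

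Ifi44, an interferon-induced protein that limits virus replication, was low in WT. Its normalised counts were 9.89, 8.98, 18.0 and 28.2 in WT and 76.6 and 184 in KO. The lowest KO value was thus well above the highest WT value. Ifi44 rose by 3.003 ± 0.59 on the log2 scale (DESeq2 adjusted p = 1.67e-05), with 2.25 and an adjusted p of 0.0865 when KO-2 was left out.

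The IFIT genes bind viral RNA or block translation, and 4 of them lie within 99.3 kb on chromosome 19 (34550694 to 34650009). Ifit1 had normalised counts of 80.2, 70.9, 90.9 and 65.8 in WT, 179 in KO-1 and 359 in KO-2. WT values were close together and KO-2 was 2.00 times KO-1. Ifit1 rose by 1.80 ± 0.36 on the log2 scale (DESeq2 adjusted p = 2.52e-05). Ifit2 was above every WT library in both KO libraries but missed the threshold (log2 fold change 0.44 ± 0.21, DESeq2 adjusted p = 0.197).

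Ifit3 and Ifit3b, the neighbouring near-copies that carry the same ISRE matches, did not pass. Ifit3 had 308, 289, 499 and 340 normalised counts in WT, 200 in KO-1 and 482 in KO-2. Ifit3b had 98.9, 74.5, 187 and 120 in WT, 48.6 in KO-1 and 159 in KO-2. For both genes KO-1 was the lowest of the 6 libraries while KO-2 lay inside the WT range, and the log2 fold changes were -0.08 ± 0.36 and -0.22 ± 0.50 (DESeq2 adjusted p = 0.931 and 0.856), with 95% intervals from -0.78 to 0.62 and from -1.20 to 0.75. Both changed sign with the libraries used: without WT-3 they were 0.12 and 0.07, and without KO-1 they were 0.43 and 0.40. Of the 50-base stretches of Ifit3, 51.2% also occur in Ifit3b, so the split of reads between the pair is uncertain and each value may hold reads of the other.

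Mx1 and Mx2 belong to a family of dynamin-like GTPases that trap viral nucleoprotein complexes. The annotation labels Mx2 a polymorphic pseudogene, and whether these mice make either protein was not tested. Normalised counts of Mx1 were 40.6, 9.88, 18.97 and 6.26 in WT and 26.6 and 82.4 in KO, and those of Mx2 were 50.5, 35.0, 38.9 and 32.4 in WT and 41.7 and 61.5 in KO. KO-2 was the highest library for both and KO-1 lay inside the WT range, and neither passed (DESeq2 adjusted p = 0.233 and 0.707). The other antiviral effectors, Ifi35, Bst2, Xaf1 and Rtp4, had log2 fold changes between -0.23 and 0.42 and did not pass.

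All 5 sensor and translation genes were above every WT library in both KO libraries, and 2 passed (4 without KO-1, 0 without KO-2). Of all tested genes, 17.9% were above every WT library in both KO libraries and 5.71% passed as higher. Ifih1 (MDA5), which detects long double-stranded RNA, had normalised counts of 136, 207, 196 and 214 in WT and 350 and 366 in KO. The KO libraries were nearly equal and far from the WT range. Ifih1 rose by 0.92 ± 0.27 on the log2 scale (DESeq2 adjusted p = 0.0088), and without KO-2 the adjusted p was 0.0963. Zbp1, which senses Z-form nucleic acid and starts necroptosis, had 47.2, 18.0, 34.0 and 42.8 in WT, 70.6 in KO-1 and 168 in KO-2. KO-2 stood well above KO-1, and the log2 fold change of 1.75 ± 0.52 (DESeq2 adjusted p = 0.0125) was 1.01 without KO-2 (adjusted p = 0.46). Ddx58 (RIG-I), Dhx58 (LGP2, their regulator) and Eif2ak2 (PKR, which halts translation when it binds double-stranded RNA) had log2 fold changes of 0.50, 0.77 and 0.49 (DESeq2 adjusted p = 0.0518, 0.211 and 0.0823).

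Of the transcription factors, only Irf7, the factor that amplifies type I interferon production, passed. Its normalised counts were 126, 125, 71.9 and 78.3 in WT and 187 and 213 in KO. The WT libraries formed a higher and a lower pair, both below the KO libraries. The log2 fold change was 0.99 ± 0.35 (DESeq2 adjusted p = 0.0431), a value at the threshold: leaving out WT-3, WT-4, KO-1 or KO-2 each took it past 0.05, to 0.282 without KO-2. Irf7 overlaps Phrf1 on the opposite strand, and whether the counting used strand is not given in the sources used here.

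The components of the type I signalling complex itself moved little. Irf9 had normalised counts of 654, 567, 629 and 664 in WT and 725 and 728 in KO, above every WT library in both but with a log2 fold change of only 0.21 ± 0.18 (DESeq2 adjusted p = 0.556). Stat2 had 375, 376, 927 and 797 in WT and 651 and 553 in KO. The WT libraries split into a low and a high pair with both KO libraries between them, and the log2 fold change was -0.04 ± 0.36 (DESeq2 adjusted p = 0.968), above 0 without WT-3 (0.22), WT-4 (0.11) or KO-2 (0.08). Irf1, a factor that interferon-γ induces, had 752, 751, 847 and 783 in WT and 757 and 777 in KO. It was the steadiest of the 4 factors, with a log2 fold change of -0.03 ± 0.17 and a 95% interval from -0.37 to 0.31.

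In the OAS family, whose members make 2′-5′ oligoadenylates that activate RNase L or are inactive relatives of such enzymes, Oasl2 and Oas2 passed. Oasl2 had normalised counts of 277, 197, 278 and 351 in WT, 492 in KO-1 and 1104 in KO-2. Every KO value was above the WT range, with KO-2 more than 2 times KO-1, and the log2 fold change was 1.53 ± 0.33 (DESeq2 adjusted p = 0.000166). It was 0.85 without KO-2, with an adjusted p of 0.138. Oas2 had 163, 97.9, 86.9 and 119 in WT and 231 in both KO libraries. Both KO libraries were above the highest WT library, and the log2 fold change of 0.99 ± 0.33 (DESeq2 adjusted p = 0.0278) missed the threshold when any of WT-2, WT-3, WT-4, KO-1 or KO-2 was left out (0.168 without KO-2).

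The other OAS genes were low. Oas3, chosen here after its values were seen, had normalised counts of 5.49, 0, 0 and 12.5 in WT and 35.7 and 40.6 in KO. Its log2 fold change of 3.10 ± 1.20 was among the largest of the 40 and did not pass (DESeq2 adjusted p = 0.0781), with fewer than 10 normalised counts in the WT mean. Oas1a (log2 fold change 1.36, DESeq2 adjusted p = 0.107) was above every WT library in both KO libraries and shares 57.6% of its 50-base stretches with Oas1g and Oas1b. Oasl1 (log2 fold change 2.05, adjusted p = 0.392) was not.

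All 6 genes for ISG15, its protease and the ligases were above every WT library in both KO libraries (17.9% of all tested genes were). Of these 6, Parp14 passed, where 5.71% of all tested genes passed as higher. Parp14, an ADP-ribosyltransferase, had normalised counts of 718, 674, 801 and 942 in WT and 1203 and 1217 in KO. The KO libraries agreed closely and the log2 fold change was 0.63 ± 0.20 (DESeq2 adjusted p = 0.0224), which missed the threshold without WT-1, WT-2, KO-1 or KO-2 (0.117 without KO-2). Isg15, the ubiquitin-like modifier, had 71.4, 39.5, 42.9 and 80.4 in WT and 105 and 106 in KO. Usp18, the protease that removes ISG15 and damps the receptor, had 51.6, 40.4, 39.9 and 57.4 in WT and 93.3 and 94.6 in KO. Despite groups that did not overlap, neither passed (log2 fold change 0.85 ± 0.43 and 0.99 ± 0.39, DESeq2 adjusted p = 0.211 and 0.0892). Parp9, its partner ligase Dtx3l and the ubiquitin ligase Trim25 had log2 fold changes of 0.43, 0.56 and 0.45 and did not pass (DESeq2 adjusted p = 0.2, 0.063 and 0.17). Parp9 and Dtx3l overlap on opposite strands and may share reads.

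**Figure D3:**
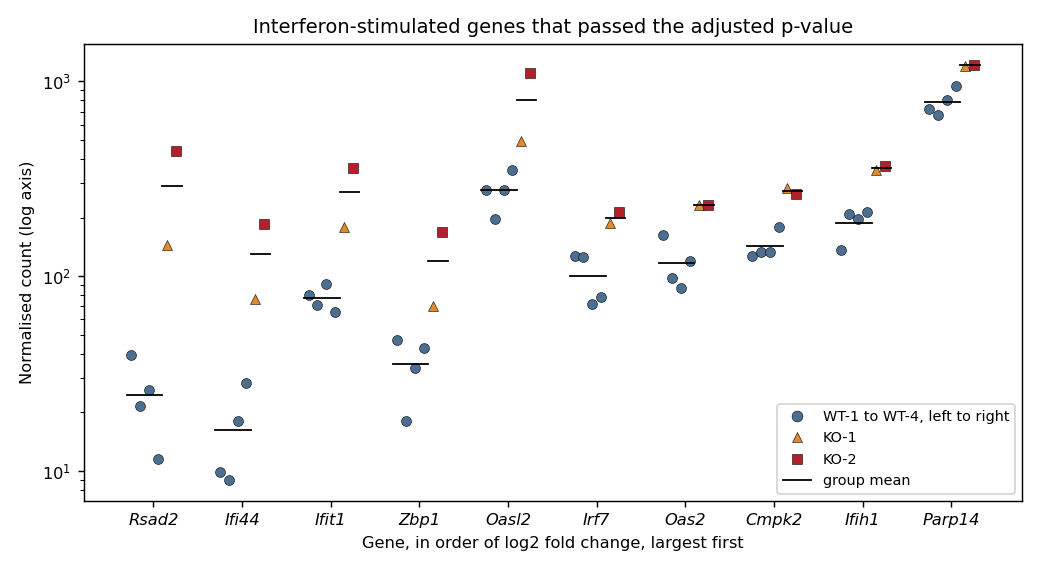
Normalised counts (log axis) of the 10 genes that passed, in each of the 4 WT libraries (blue circles), KO-1 (orange triangles) and KO-2 (red squares), with black lines at the group means. In each gene both KO points lie above all WT points; the KO points lie far apart for Rsad2 (144 and 439) and Oasl2 (492 and 1104) and close together for Oas2, Ifih1 and Parp14.

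The interferon-inducible GTPases, which attack the vacuoles of intracellular pathogens and respond strongly to interferon-γ, did not separate the KO from the WT libraries. None of the 5 passed by DESeq2 or edgeR (Gbp2 and Gbp7 had an unadjusted p under 0.05 by DESeq2). For none were both KO libraries above every WT library, which was so for 17.9% of all tested genes. All 5 were lowest in WT-2 among the WT libraries, and all 5 were higher in KO-2 than in KO-1. Summed over Gbp2, Gbp3, Gbp7, Igtp and Iigp1, they had normalised counts of 3855, 2053, 4939 and 5558 in the WT libraries, 4049 in KO-1 and 8024 in KO-2. KO-1 therefore lay inside the WT range and KO-2 above it. Their log2 fold changes ran from 0.13 (Igtp) to 0.71 (Gbp2), and those of Igtp and Iigp1 were -0.11 and -0.33 without KO-2.

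The immunoproteasome subunits Psmb8 and Psmb9, which replace catalytic subunits of the proteasome and shape the peptides shown on MHC class I, did not pass. Psmb8 had normalised counts of 305, 253, 279 and 350 in WT and 345 and 393 in KO. Psmb9 had 179, 88.9, 140 and 231 in WT and 209 and 98.3 in KO. The groups overlapped in both, with log2 fold changes of 0.31 ± 0.24 and -0.05 ± 0.42 (DESeq2 adjusted p = 0.468 and 0.965). Psmb9 shares exonic sequence on the opposite strand with Tap1.

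Among the 30 genes with a promoter, the ISRE form was present in 3 of the 7 that passed (Ifit1, Ifih1 and Rsad2) and in 13 of the 23 that did not. The GAS form was present in 0 of the 7 and in 9 of the 23. Both lists thus hold genes with and without the ISRE form, and Ifit1 and Ifit3, whose matches have the same letters, differed as given above.

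Interferon transcripts themselves were at or near 0 counts at this depth, and none had an adjusted p-value. Of 21 interferon ligand genes, 18 had 0 counts in all 6 libraries, and the largest normalised count of the rest was 3.69 (Ifnz in KO-2). A count of 0 in a library allows up to 3 counts.

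Receptors and JAK-STAT genes moved in both directions. Jak1, a kinase of all interferon receptors, was higher in KO (log2 fold change 0.59 ± 0.17, DESeq2 adjusted p = 0.00761). Ifngr2, a chain of the interferon-γ receptor, fell by 0.64 ± 0.17 on the log2 scale (adjusted p = 0.00361) and Tyk2, a kinase of the type I receptor, by 0.56 ± 0.19 (adjusted p = 0.0294). Jak1 and Ifngr2 passed whichever single library was left out, and Tyk2 did not pass without WT-1, WT-2, WT-4 or KO-2 (0.215 without KO-2) or by edgeR (0.0627).

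Of 16 genes that sense nucleic acids upstream of interferon, 2 were higher and 0 lower, against 5.71% and 4.69% of all tested genes. At an unadjusted p under 0.05 by DESeq2, 4 were higher and 2 lower, where 11.9% of all tested genes were higher. By edgeR 1 was higher, Tlr7, and 0 lower, against 3.42% and 2.76% of the genes it tested. Tlr7, the endosomal receptor for single-stranded RNA found mainly in immune cells, had normalised counts of 69.2, 70.0, 56.9 and 71.0 in WT and 218 and 371 in KO (log2 fold change 2.14 ± 0.33, DESeq2 adjusted p = 1.26e-08). Zc3hav1, the zinc-finger antiviral protein that targets CpG-rich RNA, was higher by 0.69 ± 0.21 (adjusted p = 0.0121). Of 17 negative regulators of the pathway, 1 was higher and 1 lower, near the shares of all tested genes. The phosphatase gene Ptpn6 (SHP-1) was higher by 0.94 ± 0.30 (DESeq2 adjusted p = 0.0241). The receptor tyrosine kinase gene Tyro3 fell by 0.86 ± 0.26 (adjusted p = 0.0132). By edgeR none of the negative regulators passed (adjusted p = 0.0597 for Ptpn6 and 0.068 for Tyro3). Tlr7 passed whichever single library was left out. The other genes did not pass without WT-2 or without KO-2 (adjusted p = 0.175, 0.362 and 0.204 for Zc3hav1, Ptpn6 and Tyro3 without KO-2), nor did Ptpn6 without WT-3 or Tyro3 without WT-1.

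A further list held 115 interferon-stimulated genes outside the 40, of which 108 could be tested. Of these, 21 were higher in KO and 0 lower, against 5.71% and 4.69% of all tested genes. The median log2 fold change was 0.52 over the 104 of the list whose normalised counts averaged 10 or more. At an unadjusted p under 0.05 by DESeq2, 41 were higher and 1 lower, where 11.9% of all tested genes were higher. By edgeR 15 were higher and 0 lower, against 3.42% and 2.76% of the genes it tested. Without KO-2 the number higher was 9, and without KO-1 it was 27. Of the 21, 17 were more than 2-fold higher, as were 3.54% of all tested genes. By adjusted p-value the first were Lgals3bp, a secreted galectin-binding protein (log2 fold change 1.69), the membrane protein gene Ly6e (1.94), Lgals9 (galectin-9, 1.33), and Cybb, the phagocyte NADPH oxidase subunit (1.19). Next came the DNA-binding PYHIN genes Ifi209 (2.61), Ifi203 (1.45) and Ifi204 (1.60), Epsti1 (2.17), and the Schlafen genes Slfn5 (0.91) and Slfn2 (1.47), with adjusted p-values of at most 0.000563 by DESeq2. Of these, Ifi204 and Slfn2 did not pass without KO-2 (adjusted p = 0.106 and 0.0585). Several of these genes, Cybb among them, are expressed by macrophages as well.

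**Figure D4:**
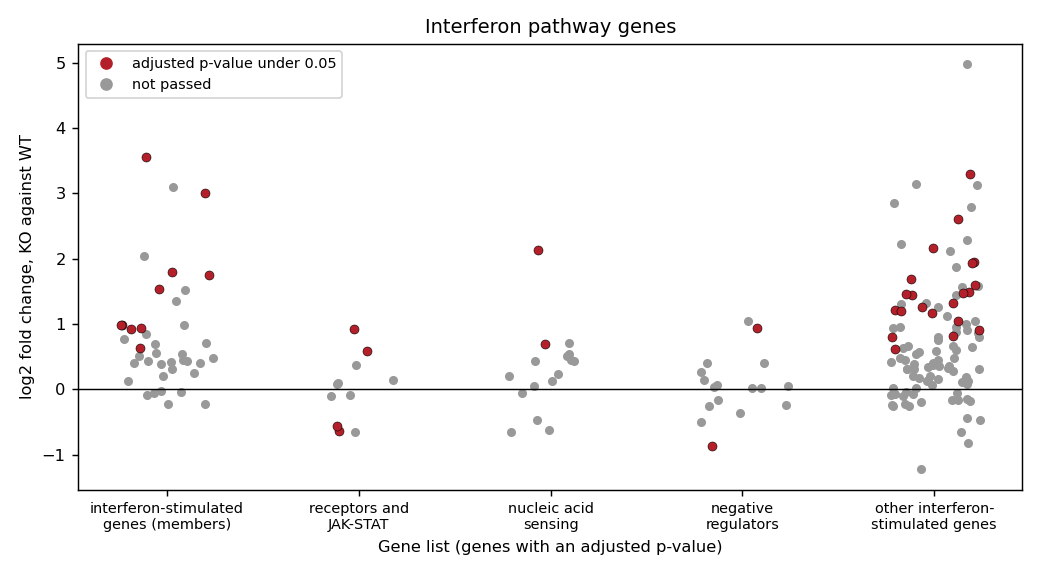
Log2 fold change of KO against WT (y axis) for the 40 genes and for 4 further lists of interferon pathway genes, 1 point per gene with an adjusted p-value, spread sideways for legibility. Red points passed at an adjusted p-value under 0.05: 10 of the 40, and 4, 2, 2 and 21 in the other lists, where 3 of the red points lie below 0.

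Markers of several other cell types were also higher in the KO libraries. Of 16 macrophage markers, 12 passed, all higher (5.71% of all tested genes were higher), and 6 passed by edgeR, with a median log2 fold change of 0.74, and their summed normalised counts were 12042 to 14182 in WT, 20910 in KO-1 and 23516 in KO-2. Without KO-2 7 of the 16 passed, and without KO-1 9 did. Examples were Mrc1 (log2 fold change 1.41), Itgam (1.80) and Lyve1 (1.15). Endothelial markers passed in 4 of 10 genes, all higher (3 by edgeR), with sums of 15284 to 25892 in WT and 34609 and 33754 in KO. Of the same 10, Erg and Egfl7 were below every WT library in both KO libraries (log2 fold changes of -0.57 and -0.48, DESeq2 adjusted p = 0.0719 and 0.131), and Erg passed as lower without KO-2. Of 7 mesothelial markers, which mark the lining of body cavities, all 7 were above every WT library in both KO libraries and 5 passed, all more than 2-fold higher (3 by edgeR, and 1 without KO-2). Their median log2 fold change was 2.75, with sums of 676 to 866 in WT, 1464 in KO-1 and 2759 in KO-2. Of all tested genes, 17.9% were above every WT library in both KO libraries. In bulk tissue a change in the number of cells of a type and a change in RNA per cell cannot be told apart.

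Lymphocyte and natural killer cell markers were scarce, with sums over 12 genes of 34.5 to 86.8 in WT, 127 in KO-1 and 427 in KO-2. None of them passed by DESeq2 or edgeR (3 had an unadjusted p under 0.05, all higher), and Ncr1 was at 0 in every library. Of 9 dendritic cell markers none passed by either tool (3 at an unadjusted p under 0.05, all higher), with sums of 969 to 1140 in WT and 1297 and 1155 in KO, of which Bst2 is also one of the 40 genes. Of 8 neutrophil markers 2 passed, both higher (5.71% of all tested genes were higher), and 2 were at 0 in every library. Neutrophil sums were 33.0 to 80.8 in WT and 175 and 240 in KO. Without KO-1 no neutrophil marker passed, and without KO-2 1 did, while 1 dendritic cell marker passed without KO-1. The macrophage, mesothelial, lymphocyte, neutrophil, fibroblast, adipocyte and red blood cell sums were highest in KO-2, as was the median of the interferon-stimulated genes. Endothelial, dendritic cell, cardiac muscle and Schwann cell sums were highest in KO-1, and the smooth muscle sum in WT-3. Fibroblast and endothelial medians relative to the WT mean (log2 scale) ordered the KO libraries the other way. The fibroblast median was 0.50 in KO-1 and 0.29 in KO-2, and KO-2 was above KO-1 for 1 of 8 markers. The endothelial median was 0.55 in KO-1 and 0.71 in KO-2. The part of these cell types in the differences of the 40 genes was not tested.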

How the data were processed

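RNA-seq was analysed for 4 WT and 2 KO thoracic aortas. The authors trimmed reads with Trim Galore 0.5.0, aligned them to GRCm38 with HISAT2 2.1.0 and deposited estimated counts per gene from StringTie 1.3.3b on GENCODE M15, unscaled for depth and already whole. Symbols and positions came from GENCODE M21 on GRCm38 (52489 of 52636 identifiers matched). DESeq2 1.42.0 in R 4.3.3 compared KO with WT (Wald test, group only, default size factors and independent filtering), the tool of the study's methods. Passing means an adjusted p-value under 0.05; 2-fold calls add a fold above 2. edgeR 4.0.16 (quasi-likelihood test), other scalings, a GC correction and leaving out each library were alternatives, and the fit was tested on simulated data. Values in every library are given for genes that passed and for Isg15, Usp18, Stat2, Irf9, Irf1, Mx1, Mx2, Ifit3, Ifit3b, Psmb8 and Psmb9; up to 10 genes per further list are named by adjusted p-value. The 40 genes, lists and tests were chosen with earlier results of these data known. Separate mice per library are assumed from the labels, and p-values measure only the spread between these libraries. Counts totalled 19650983 to 28860598 per library. One result is not reported here.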

Additional observations from a re-analysis of the deposited data

Results flagged for a closer look

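Among 48 results checked for a WT library far from the others, 1 stood out by Dixon's test at the 95% level, where chance would give about 2.4. The normalised count of Cmpk2 was 178.55 in WT-4 and 127 to 134 in the other WT libraries, a gap of 0.875 of the WT range. It remained below both KO libraries (263 and 284).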

How the results depend on the processing

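Only 2 libraries form the KO group, and KO-2 stood apart in mitochondrial, adipocyte and red blood cell RNA. Of 640 values of single genes under 16 alternatives, 554 kept their direction and side of the threshold, 43 lost the call, 12 gained one and 31 changed sign. The causes were not tested.

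Of the 40 genes, 10 passed. By edgeR 6 did, with or without its filter, and 1 (Rsad2) did in a test against a 2-fold change. Leaving out 1 library gave 3 to 10. Of 5 more than 2-fold higher, 1 remained in the test against a 2-fold change, there were 10 after scaling by total counts without mitochondrial genes (which moved the median of all genes from 0.02 to 0.11), and 2 to 7 without 1 library. The median of the 40 was 0.44 to 0.70 without 1 library.

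Over all genes 1775 passed: 996 by edgeR, 931 without its filter, 114 against a 2-fold change, 1113 to 2439 without 1 library. Those more than 2-fold higher numbered 604 (392 by edgeR, 64 against a 2-fold change, 306 to 724 without 1 library), and those lower 358 (230 by edgeR without its filter, 50 against a 2-fold change, 283 to 560 without 1 library). Of the other pathway genes 26 were higher (17 by edgeR without its filter, 0 against a 2-fold change, 12 to 34 without 1 library) and 3 lower (1 by edgeR with or without its filter, 0 against a 2-fold change, 1 after GC correction, 1 to 5 without 1 library).

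The replicate block, with the library number as a term, gave 628 genes passed and 305 more than 2-fold higher over all genes, 3 of the 40 passed and 3 past 2-fold, 8 other pathway genes higher and 0 lower, and a median of 0.78 for the 40. Same-numbered libraries had correlations of -0.09 and 0.01 in their deviations from the group means. With only 2 KO libraries, the deviations of KO-1 and KO-2 mirror each other. The check therefore cannot decide whether the numbers pair libraries.

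Signs changed for these genes, among them Iigp1, whose log2 fold change was 0.55 over all libraries and -0.33 without KO-2. Scaled by total counts, Irf1, Stat2 and Psmb9 had log2 fold changes of 0.0087, 0.0082 and 0.016. Without mitochondrial genes in the totals these were 0.069, 0.063 and 0.054, and Ifit3 had 0.019. With the GC trend taken out the 3 genes had 0.063, 0.0068 and 0.047. With the replicate block Ifit3, Ifit3b, Irf1, Stat2 and Psmb9 had 0.062, 0.039, 0.029, 0.68 and 0.18. Leaving out 1 library gave -0.83 to 0.43 for Ifit3, -1.29 to 0.40 for Ifit3b, -0.51 to 0.0096 for Ifi35, -0.052 to 0.0090 for Irf1, -0.22 to 0.22 for Stat2, -0.038 to 0.52 for Rtp4, -0.14 to 0.36 for Igtp, -0.33 to 1.09 for Iigp1 and -0.70 to 0.40 for Psmb9.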

Other observations

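Outside the 40 genes, 2 gene families were picked after their values were seen. Of all tested genes, 5.71% passed as higher and 17.9% were above every WT library in both KO libraries. Of 11 listed PYHIN genes, which bind DNA and lie on chromosome 1, 5 passed by DESeq2, all higher, and 2 of these also passed without KO-2. Ifi207 and Ifi213 had log2 fold changes of 1.18 and 1.96 (DESeq2 adjusted p = 0.00705 and 0.0434) and lost the call without KO-2 (adjusted p = 0.283 and 0.521), Ifi213 also without WT-1, WT-2 or WT-4. Ifi205, Ifi206, Ifi208, Ifi211 and Aim2 did not pass, and Ifi214 had no adjusted p-value. All 11 PYHIN genes, the untested Ifi214 included, were above every WT library in both KO libraries. Some were near the floor: WT means were 1.92 for Ifi205, 5.19 for Ifi206, 5.51 for Ifi208 and 0 for Ifi214. Of 5 listed Schlafen genes, 4 passed, all higher, and 1 of these (Slfn5) also passed without KO-2. Slfn8 and Slfn9 had 1.27 and 1.46 (DESeq2 adjusted p = 0.006 and 0.0292) and lost the call without KO-2 (0.27 and 0.663), Slfn9 also without WT-1, WT-3 or WT-4, and Slfn1 did not pass. All 5 Schlafen genes were above every WT library in both KO libraries. PYHIN and Schlafen genes are sets of close copies, so reads may be shared within each set.

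Other genes picked in the same way rested on KO-2. The exonuclease gene Isg20 had normalised counts of 62.0 to 85.7 in WT, 137 in KO-1 and 285 in KO-2, and without KO-2 its DESeq2 adjusted p was 0.219. Cxcl9, a chemokine that interferon-γ induces and that attracts T cells, had normalised counts of 16.5, 4.49, 24.97 and 3.13 in WT, 11.4 in KO-1 and 230 in KO-2, so that KO-1 lay inside the WT range. B2m, the light chain of MHC class I, had 9605, 8886, 13504 and 10517 in WT, 13293 in KO-1 and 36114 in KO-2, again with KO-1 inside the WT range. Cxcl9 and B2m passed by DESeq2 over all libraries (adjusted p = 0.00804 and 0.00292) and not without KO-2 (0.982 and 0.526), and Cxcl9 also did not pass without WT-1 or WT-2.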
